A study of Mus musculus with 6 samples.

Results

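Sprouting blood vessels are led by tip cells, endothelial cells that migrate toward vascular endothelial growth factor (VEGF) and are followed by stalk cells that build the tube. Tip cells are known for high VEGFR2 signaling, for the Notch ligand Dll4, which restrains tip behavior in neighboring cells, and for secreted products such as Esm1, apelin and angiopoietin-2. In the resting liver most endothelium is sinusoidal, a fenestrated lining that also carries VEGF receptors, so the receptor genes of the group are not restricted to sprouts. The 10 mouse genes described here are Apln, Angpt2, Pgf and Dll4, which encode ligands, Esm1 and Plvap, which encode an endothelial secreted proteoglycan and a caveolar and fenestral diaphragm protein, and Aplnr, Kdr, Flt1 and Flt4, which encode receptors. They are 10 of the 56884 genes in the mouse count table and 10 of the 18018 genes that reached a total of 10 counts. The genes were chosen from the known tip-cell repertoire with their difference between the siAATF and siControl groups already known. Their differences in that comparison are therefore given as descriptions without p-values, and calls of these genes only describe them.

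The data are 6 libraries of bulk RNA from livers of male BALB/c (nu/nu) mice, which lack a thymus. Of these, 3 carry the label siControl and 3 the label siAATF. The mice carried QGY-7703 human hepatocellular carcinoma (HCC) cells in the liver. The labels give an age of 6 weeks, which by the study's methods is the age at implantation and not at sampling. AAV8, an adeno-associated virus that transduces the liver, delivered siControl or an siRNA against mouse Aatf through the tail vein, with the siRNA under the TBG promoter, which is active in hepatocytes. The injection came a week after implantation, and the tissue was taken 3 weeks after the injection. The labels give the genotype of the groups as WT and KD. Mouse RNA was read as the tumor microenvironment (TME) and human RNA as the tumor, and the comparison asked how the stroma differed once Aatf was targeted in the host liver.

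The libraries of the groups stood apart before any gene was compared. Human counts made up 98.1% to 99.2% of all gene counts in the libraries labelled siControl and 0.972% to 2.14% in those labelled siAATF, and the mouse counts numbered 213022 to 913584 and 11835898 to 42563694. Levels are given as CPM, the count scaled by the mouse library size after TMM normalization. Where a gene has no counts, a true level of up to 3 counts per library remains possible, which equals 1.67 to 7.24 CPM under the siControl label and 0.103 to 0.604 CPM under the siAATF label. Mitochondrial genes took 4.04% to 10.5% of mouse counts in siControl and 20.8% to 56.1% in siAATF, the highest in siAATF replicate 2. After TMM normalization Aatf itself was not lower under the siAATF label. It had 9.62, 2.41 and 12.8 CPM in siControl and 13.2, 22.0 and 18.8 CPM in siAATF. The log2 fold change was 0.93 (SE 0.47, edgeR adjusted p = 0.152). With mouse library size alone the Aatf mean was lower in siAATF, and the groups overlapped. The groups are therefore named by their labels. The siRNA and the makeup of the tissue piece cannot be told apart in this design, and in bulk RNA fewer endothelial cells and less RNA per cell cannot be told apart either.

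After TMM normalization all 10 genes had lower mean levels in the libraries labelled siAATF. Of these, 9 were called lower at an adjusted p under 0.05. Among all 18018 genes tested, 14.4% were called lower and 17.6% higher. The genes were chosen with this contrast known, so nothing is read from their count. Their median log2 fold change was -4.85, beside 0.50 over all genes tested, after TMM normalization, which scales the libraries on the bulk of mouse genes. In 8 of the 10 every siAATF library was below every siControl library, which was so for 18.1% of all genes tested, and Aplnr and Kdr overlapped. The fold changes spanned a wide range, from Esm1 and Apln, whose levels nearly vanished in the libraries labelled siAATF, to Kdr, whose levels overlapped. With the counts of both species as library size, 5 of the 10 genes had lower siAATF means and 5 higher.

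**Figure D1:**
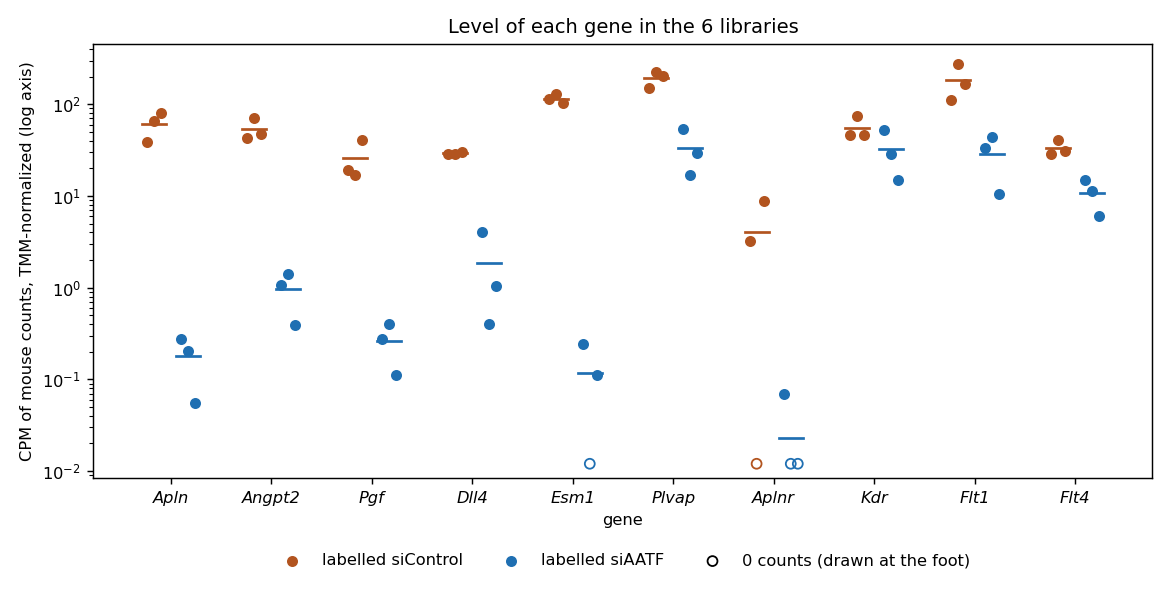
TMM-normalized CPM of mouse counts (log axis) of the 10 genes in each of the 6 libraries, with 1 point per library, lines at the group means of 3 libraries and open circles for libraries with 0 counts. Points of the groups are separate for 8 genes and overlap for Aplnr and Kdr.

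Apln encodes apelin, a peptide that tip cells secrete. It had 38.5, 65.1 and 80.8 CPM in siControl replicates 1 to 3 and 0.276, 0.201 and 0.0554 CPM in siAATF replicates 1 to 3. The groups were far apart, and the 2 lower siAATF libraries held 1 Apln count each. The log2 fold change was -8.28 (SE 0.60), and -9.06 without siAATF replicate 1, which held 8 of the 10 Apln counts of that group. Apln lies on the minus strand of chrX:47114023-47123730 (GRCm39).

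Angpt2 encodes angiopoietin-2, a ligand of the receptor Tie2 that is released by activated endothelium and loosens the contact with pericytes. It had 43.3, 70.0 and 47.4 CPM in siControl and 1.07, 1.41 and 0.388 CPM in siAATF. Every siControl library was above every siAATF library, with means of 53.5 ± 14.4 and 0.956 ± 0.520 (SD, n = 3 each) and a log2 fold change of -5.87 (SE 0.52). Angpt2 (chr8:18740279-18791578) lies within the span of Mcph1 on the opposite strand, which had 1 to 6 counts in siControl and 28 to 90 in siAATF against 7 to 31 of Angpt2, and reads of the pair cannot be told apart if the counting ignored strand, which is not stated.

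Pgf encodes placental growth factor, a VEGF family ligand of Flt1. It had 19.2, 16.9 and 41.2 CPM in siControl and 0.276, 0.403 and 0.111 CPM in siAATF. siControl replicate 3 was the highest, and even the lowest siControl library was above every siAATF library, and the log2 fold change was -6.77 (SE 0.62). The 3 siAATF libraries held 12 Pgf counts together, and after every library was thinned to 213022 mouse counts, which left 0, 1 and 0 of them, the log2 fold change was -3.65, a value that rests on that 1 count. The gene lies at chr12:85213409-85224564.

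Dll4 encodes the Notch ligand that marks tip cells and arterial endothelium. Its level was the most even of the 10 in siControl, with 28.9, 29.0 and 30.1 CPM, and the most uneven of the ligands in siAATF, with 4.07, 0.403 and 1.05 CPM. The groups did not overlap. The log2 fold change was -3.83 (SE 0.63) under TMM, 0.55 with the counts of both species as library size, and -5.09 without siAATF replicate 1, the siAATF library with the highest level. Dll4 (chr2:119156265-119166443) overlaps the antisense lncRNA Gm14207, which had 2 to 15 counts per library.

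Esm1, or endocan, is a secreted proteoglycan made by VEGF-stimulated endothelium and among the most used tip-cell markers. It had 113, 128 and 102 CPM in siControl, from 141, 53 and 183 counts, and 0.241, 0 and 0.111 CPM in siAATF, from 7, 0 and 2 counts. Esm1 was thus high and even in one group and near the limit of detection in the other. The log2 fold change was -9.35 (SE 0.60), and -10.04 without siAATF replicate 1. On pooled counts the siControl level was 631 times the siAATF level, with a 95% exact interval of 329 to 1390 that covers counting error only. Esm1 lies on the plus strand of chr13:113346193-113354632 and overlaps Gzmk on the other strand, which had at most 4 counts in any library.

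Plvap encodes the protein of the diaphragms that close fenestrae and caveolae, and it is high in many tumor vessels. It had 150, 227 and 204 CPM in siControl and 53.4, 17.1 and 29.5 CPM in siAATF. The groups did not overlap, but 2167 Plvap counts remained in the siAATF libraries, and the log2 fold change of -2.53 (SE 0.48) lay close to the median of the pan-endothelial markers, -2.56, and turned to 1.92 with the counts of both species as library size. The gene lies at chr8:71950409-71964396.

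Under TMM the receptors differed less than the ligands, apart from the apelin receptor. That ranking did not hold with the counts of both species as library size. The Aplnr counts of siControl were 4, 0 and 16 and those of siAATF 2, 0 and 0, so the groups overlapped at 0. Pooled, its TMM-normalized level was 151 times higher in siControl, with a 95% exact interval of 36.6 to 1328 that rests on 2 siAATF counts, both in replicate 1. Of its 20 siControl counts, 16 were in replicate 3, without which Aplnr did not reach the count minimum for testing. Its fitted log2 fold change of -6.61 (SE 1.27) was -7.62 without siAATF replicate 1 and -6.01 without siAATF replicate 3. Aplnr lies at chr2:84966569-84970267 and is too thinly covered for more.

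Kdr encodes VEGFR2, the main signaling receptor for VEGF-A in endothelium. It had 45.7, 74.8 and 45.7 CPM in siControl and 53.0, 28.6 and 14.8 CPM in siAATF. siAATF replicate 1 lay above 2 of the 3 siControl libraries, and Kdr was the 1 gene of the 10 that was not called (log2 fold change -0.75, SE 0.47). Without that library it was -1.30 and was called lower. Kdr lies on the minus strand of chr5:76093487-76139118.

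Flt1 encodes VEGFR1, a receptor for VEGF-A and placental growth factor that also has a soluble form, and gene counts do not separate the forms. It had 111, 275 and 168 CPM in siControl and 33.1, 43.5 and 10.5 CPM in siAATF, without overlap. Flt4 encodes VEGFR3, the receptor for VEGF-C, found on lymphatic and sinusoidal endothelium and on tip cells. It had 28.9, 41.0 and 31.2 CPM in siControl against 15.03, 11.3 and 6.09 CPM in siAATF, also without overlap. The log2 fold changes were -2.66 (SE 0.56) for Flt1 (chr5:147498414-147662821) and -1.61 (SE 0.41) for Flt4 (chr11:49500090-49543566), and they turned to 1.75 and 2.75 with the counts of both species as library size.

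Levels per kilobase of transcript (RPKM from TMM-normalized mouse counts) put the genes in different orders in the groups. In siControl the order was Plvap (97.5 ± 19.9 RPKM, SD, n = 3), Esm1 (54.5 ± 6.20), Apln (19.5 ± 6.79), Flt1 (16.8 ± 7.61), Angpt2 (15.04 ± 4.04), Pgf (12.4 ± 6.45), Kdr (9.35 ± 2.84), Dll4 (7.82 ± 0.181), Flt4 (5.39 ± 1.03) and Aplnr (1.09 ± 1.22). Plvap and Esm1 stood clear of each other and of Apln, the neighbors from Apln to Dll4 overlapped, and Dll4, Flt4 and Aplnr were separate steps. In siAATF the order was Plvap (16.8 ± 9.28 RPKM), Kdr (5.42 ± 3.27), Flt1 (2.65 ± 1.54), Flt4 (1.73 ± 0.717), Dll4 (0.491 ± 0.522), Angpt2 (0.268 ± 0.146), Pgf (0.127 ± 0.0704), Apln (0.0564 ± 0.0356), Esm1 (0.0560 ± 0.0576) and Aplnr (0.00621 ± 0.0108). Every pair of neighbors overlapped there.

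As a share of the summed RPKM of the 10 genes, which needs no scaling between libraries, Esm1 made up 27.8%, 22.1% and 19.5% in siControl and 0.268%, 0% and 0.267% in siAATF. Apln went from a mean share of 8.04% to 0.204% and Angpt2 from 6.25% to 1.08%. Kdr held 3.98%, 4.58% and 3.10% in siControl and 20.8%, 24.2% and 12.6% in siAATF, and Flt4 held 2.00% to 2.38% and 4.92% to 9.03%. Plvap was the largest share in every library, at 38.9% to 41.4% in siControl and 43.1% to 75.1% in siAATF. Beside Plvap, the siControl libraries held a mixture of ligands, Esm1 and receptors, and the siAATF libraries mainly the 3 VEGF receptors.

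**Figure D2:**
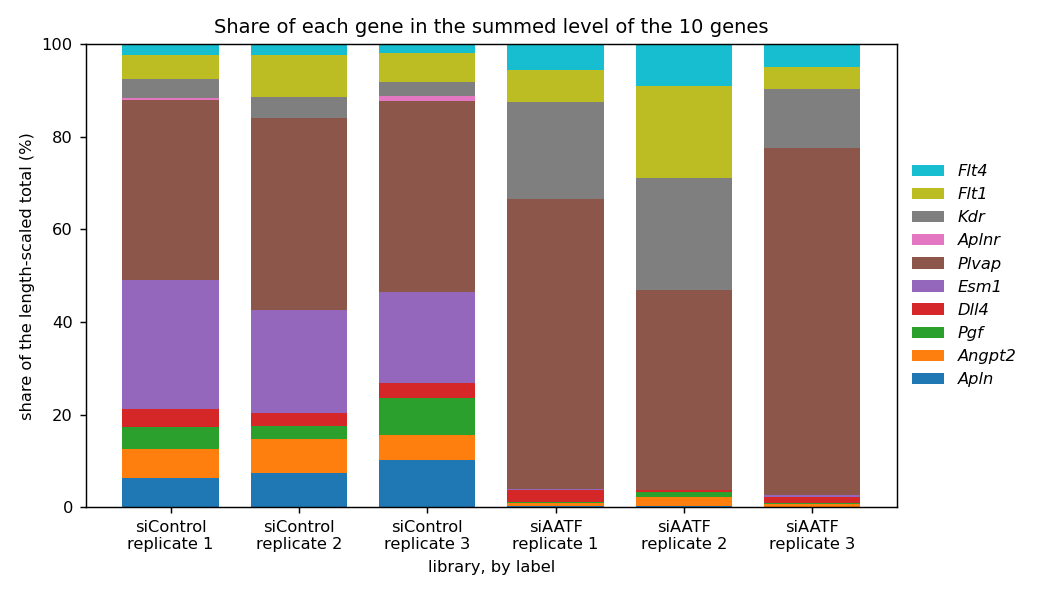
Share of each of the 10 genes in their summed length-scaled level (percent, bars stacked from 0 to 100) in each of the 6 libraries. Esm1 fills 19.5% to 27.8% of the siControl bars and at most 0.268% of the siAATF bars. Plvap, Kdr and Flt4 fill more of every siAATF bar than of any siControl bar, and the Flt1 shares overlap.

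After TMM normalization pan-endothelial markers were themselves lower in the libraries labelled siAATF. Of 12 such genes, 11 were called lower and 0 higher under TMM, with a median log2 fold change of -2.56. With the counts of both species as library size the direction turned, and 11 of the 12 had higher siAATF means, Emcn being the exception. Pecam1, the adhesion molecule CD31, was at 102 ± 23.6 CPM in siControl and 9.46 ± 8.32 CPM in siAATF (SD, n = 3 each, log2 fold change -3.40, edgeR adjusted p = 0.000811). Cdh5, the junctional VE-cadherin, fell by 3.58 (adjusted p = 0.000246), Emcn, a sialomucin, by 4.46 (adjusted p = 0.000632) and Robo4 by 3.43 (adjusted p = 0.000468) on the log2 scale. These falls were larger without siAATF replicate 1, at -4.40 for Pecam1, -4.31 for Cdh5, -6.29 for Emcn and -4.03 for Robo4. The level of the 10 genes was therefore also taken against the summed counts of the 12 markers, with totals of 774, 381 and 1649 in siControl against 7462, 613 and 1511 in siAATF.

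Against these markers the 10 genes separated into genes still far lower, genes whose levels overlapped and genes that were higher without overlap. Esm1 had 182, 139 and 111 counts per 1000 marker counts in siControl and 0.938, 0 and 1.32 in siAATF. Apln had 62.0, 70.9 and 87.9 against 1.07, 1.63 and 0.662. These genes remained apart by large factors on the endothelial scale.

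Angpt2 had 69.8, 76.1 and 51.5 counts per 1000 marker counts in siControl and 4.15, 11.4 and 4.63 in siAATF. Pgf had 31.0, 18.4 and 44.9 against 1.07, 3.26 and 1.32. Dll4 had 46.5, 31.5 and 32.7 against 15.8, 3.26 and 12.6. All 3 kept the groups apart, Dll4 by the smallest margin, and with Esm1 and Apln they make 5 of the 10 genes that were lower without overlap. Over all genes tested, 3.49% were lower without overlap on this scale and 69.9% higher. With the pan-endothelial counts as library size 5 of the 10 genes, Esm1, Apln, Aplnr, Angpt2 and Pgf, were called lower, beside 2.24% of all genes, and Dll4 was not called (log2 fold change -1.73). Aplnr had 0 counts in 1 siControl library and overlapped.

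Plvap had 242, 247 and 223 counts per 1000 marker counts in siControl and 208, 139 and 353 in siAATF. Flt1 had 178, 299 and 183 against 129, 352 and 125. In both genes the siAATF libraries lay on either side of the siControl libraries, and the means were close, at 237 ± 12.7 and 233 ± 109 for Plvap and 220 ± 68.5 and 202 ± 130 for Flt1 (SD, n = 3 each). The wide spread in siAATF leaves the size of any difference uncertain.

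Kdr had 73.6, 81.4 and 49.7 counts per 1000 marker counts in siControl and 206, 232 and 177 in siAATF, so each siAATF library was above each siControl library and the means stood at 68.2 ± 16.5 and 205 ± 27.5. Flt4 had 46.5, 44.6 and 33.96 against 58.4, 91.4 and 72.8, also without overlap. With the pan-endothelial counts as library size Kdr (log2 fold change 1.59) was called higher and Flt4 (0.83) was not called, on a scale on which 66.2% of all genes were called higher and the median log2 fold change was 3.14. After TMM normalization Flt4 was instead lower and Kdr overlapped, and with mouse library size alone both were called lower. The marker list sets the size of these values, since its members fell by unequal amounts. Against Pecam1 and Cdh5 alone, a scale added after the data were seen, Esm1 still had 468 to 727 counts per 1000 in siControl and 0 to 11.05 in siAATF, whereas Kdr had 210 to 320 and 1475 to 3087.

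**Figure D3:**
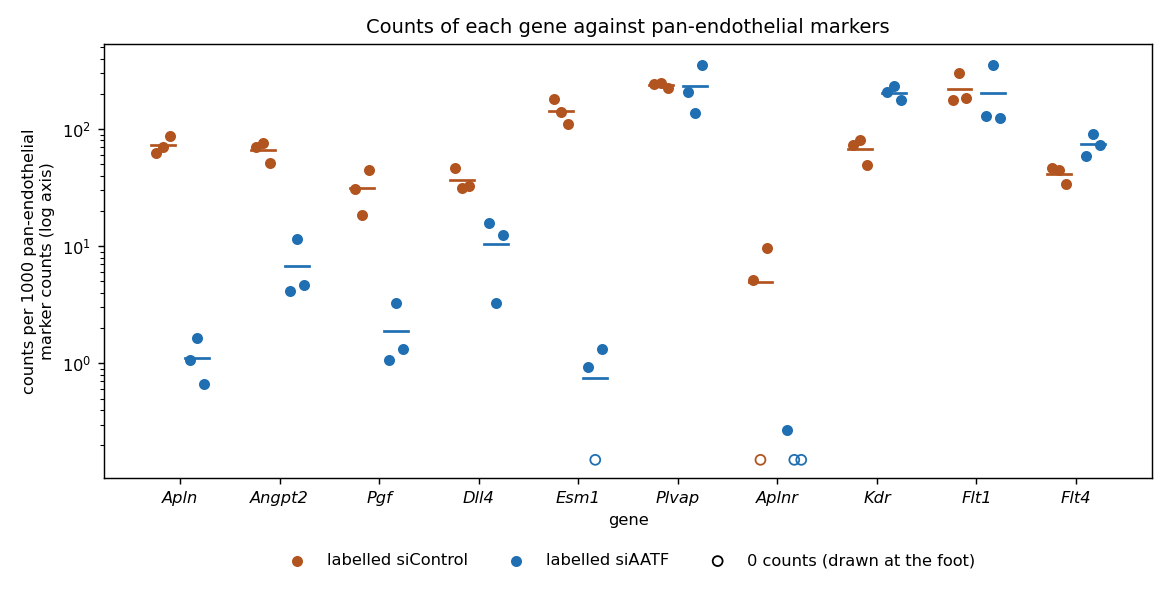
Counts of each of the 10 genes per 1000 summed counts of 12 pan-endothelial markers (log axis), with 1 point per library, lines at the means of 3 libraries and open circles for libraries with 0 counts. Apln, Angpt2, Pgf, Dll4 and Esm1 are lower without overlap in siAATF, Plvap and Flt1 overlap, and Kdr and Flt4 are higher without overlap.

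The choice of library scale moved all fold changes together. With the counts of both species as library size, the median log2 fold change over all genes was 4.66. Under that scale Esm1 was at -5.03 and Apln at -3.95, and neither Angpt2 (-1.46) nor Aplnr (-2.60) was called. Another 5 of the 10 turned positive, Kdr to 3.71, Flt4 to 2.75, Plvap to 1.92, Flt1 to 1.75 and Dll4 to 0.55. The Angpt2 call was also lost with Pecam1 and Cdh5 counts as library size (-2.02). With the pan-endothelial counts as library size the median over all genes was 3.14, Esm1 was at -7.21 and Kdr at 1.59. With mouse library size alone the median was -1.30, and all 10 genes were called lower, beside 7267 of all 18018 genes tested. Of the genes called among all mouse genes, 45.0% were lower under TMM, 90.7% with mouse library size alone, 0.752% with the counts of both species, 3.27% with the pan-endothelial counts, 0.821% with Pecam1 and Cdh5, 55.2% with upper-quartile normalization and 58.1% after thinning every library to 213022 mouse counts. A change of scale moves all genes nearly alike, so Esm1 and Apln remained the lowest and Kdr the highest of the 10 under TMM, mouse library size, pan-endothelial counts and the counts of both species, while Pgf and Aplnr changed places. After thinning, Esm1, Apln and Angpt2 held 0 counts in all 3 siAATF libraries, against 44, 53 and 53 counts of Esm1, 13, 27 and 21 of Apln and 12, 29 and 19 of Angpt2 in siControl. Kdr was then called lower (-2.16) and Flt4 was no longer called (-1.40).

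**Figure D4:**
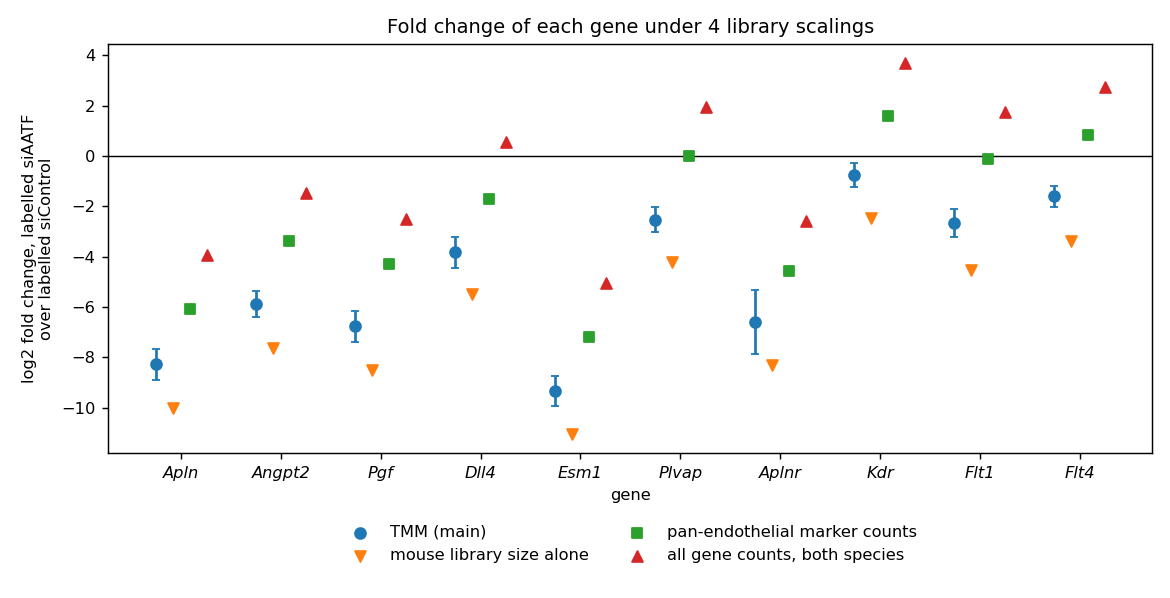
Log2 fold change of the 10 genes, siAATF over siControl by label, under 4 library scalings, with bars of 1 SE for TMM. Esm1 is lowest under each, from -11.06 with mouse library size alone to -5.03 with the counts of both species, and Kdr highest, from -2.47 to 3.71.

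Upstream of the receptors, the VEGF ligand genes did not move as one under TMM. Of 6 VEGF ligand and co-receptor genes, 2 were called lower and 1 higher, beside 14.4% and 17.6% of all genes tested. Their median log2 fold change was -0.20. With the counts of both species 6 of the 6 had higher siAATF means. The log2 fold change of Vegfa was 3.92 on that scale and 2.46 with the pan-endothelial counts. Vegfa, the ligand of Kdr and Flt1, had 67.4, 74.8 and 121 CPM in siControl and 62.5, 89.2 and 68.1 CPM in siAATF, which overlapped (log2 fold change -0.27, SE 0.39, edgeR adjusted p = 0.615). Vegfc, the ligand of Flt4, had 20.0, 16.9 and 26.7 CPM in siControl and 2.65, 1.41 and 4.43 CPM in siAATF (log2 fold change -2.88, SE 0.48, adjusted p = 0.000736, turning to 1.34 with the counts of both species). Under TMM the co-receptors went opposite ways. Nrp1 was higher in siAATF (42.7 ± 20.6 and 150 ± 35.0 CPM, log2 fold change 1.85, adjusted p = 0.0104) and Nrp2 lower (46.2 ± 15.2 and 19.4 ± 7.23 CPM, log2 fold change -1.30, adjusted p = 0.0283), the Nrp1 direction turning with mouse library size alone and the Nrp2 direction with the pan-endothelial counts or the counts of both species. The Nrp1 call was lost without siControl replicate 3 (1.45), and the Nrp2 call without siControl replicate 1 (-1.13), siControl replicate 3 (-1.23) or siAATF replicate 3 (-0.96). Only mouse transcripts were compared, and VEGF made by the human cells was not analysed here.

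Under TMM the receptors of angiopoietin-2 differed less than the ligand. Of 5 angiopoietin and Tie genes, 1 was called lower and 0 higher, beside 14.4% and 17.6% of all genes tested. With the counts of both species 5 of the 5 had higher siAATF means. Tek, which encodes Tie2, had 5.61, 4.83 and 8.36 CPM in siControl and 13.1, 4.03 and 3.49 CPM in siAATF, and its sign changed with the scale (log2 fold change 0.08, SE 0.63, adjusted p = 0.939). Tie1, its co-receptor, was lower in siAATF under TMM and not with the pan-endothelial counts or the counts of both species (37.6 ± 6.59 and 10.3 ± 8.31 CPM, log2 fold change -1.83, adjusted p = 0.0203), a call that was lost without siControl replicate 2 (-1.74), siControl replicate 3 (-1.81) or siAATF replicate 2 (-1.58), while the value was -2.73 without siAATF replicate 1. Apela, the other apelin receptor ligand, had too few counts to be tested.

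Notch pathway genes, which include the receptors and targets through which Dll4 acts and other Notch ligands, were called lower in part. Of 14 genes, 7 were called lower and 0 higher under TMM, with a median log2 fold change of -1.98 that did not hold on every scale: with the counts of both species 13 of the 14 had higher siAATF means. Rbpj, the DNA-binding factor of the pathway, was lower (28.6 ± 5.17 and 7.15 ± 2.00 CPM, adjusted p = 0.00161), as was the target Hey1 (5.15 ± 0.411 and 0.281 ± 0.314 CPM, log2 fold change -3.89, adjusted p = 0.00745), at -4.89 without siAATF replicate 1. Notch1, the receptor, had 8.82, 19.3 and 10.03 CPM in siControl and 4.52, 5.64 and 3.82 CPM in siAATF and was not called (log2 fold change -1.35, adjusted p = 0.0516). Its libraries did not overlap. Hey1 was the only one of 5 target genes called. Hes1, another target, had the opposite sign, at 28.1 ± 8.50 CPM in siControl and 56.4 ± 31.7 CPM in siAATF without overlap (log2 fold change 1.04, SE 0.46), and was not called (adjusted p = 0.104). The targets Hey2 (log2 fold change -1.77), Heyl (-1.01) and Nrarp (-2.14) also had few counts and were not called. Hey2 was at -1.08 without siAATF replicate 3, and Nrarp at 4.32 without siControl replicate 3.

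Other genes known from tip cells went the way of Esm1 and Apln. Of 14 such genes, 13 were called lower and 1, the insulin receptor gene Insr, higher, a direction that turned with mouse library size alone, at a median log2 fold change of -4.87. The largest falls among the well-covered genes were those of Igfbp3, a binding protein of insulin-like growth factors (-5.74, adjusted p = 0.00011), Cd34, a sialomucin of capillaries and sprouts (-5.41, adjusted p = 2.27e-05), and Col4a2, a basement membrane collagen (-5.18, adjusted p = 4.05e-05). Igfbp3 was at -6.82 without siAATF replicate 1. With the counts of both species as library size none of the 3 was called, at -1.22 for Igfbp3, -1.08 for Cd34 and -0.86 for Col4a2. The list was drawn up with earlier results of these libraries known and is not independent evidence of the direction. Collagen and laminin genes of the list are also made by pericytes and fibroblasts.

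Markers of other cell types moved with the groups. All 8 hepatocyte markers were called higher in siAATF, and their summed level was 1923 to 5346 CPM in siControl against 32428.5 to 82779 CPM in siAATF, with Alb, the albumin gene, at a log2 fold change of 4.23 (adjusted p = 0.00687), a call lost without siControl replicate 2 (4.01) or siControl replicate 3 (4.03). Cps1, Serpina1a and Cyp2e1 rose by 5.67, 5.37 and 5.03, and by 6.64 for Cps1 and 6.92 for Cyp2e1 without siControl replicate 1. Of 7 pericyte markers tested, 6 were called lower and 0 higher under TMM, while with the counts of both species 5 of the 7, with Pdgfrb, Des and Kcnj8 among them, had higher siAATF means, and the summed level of that list was 311 to 452 CPM in siControl against 135 to 156 CPM in siAATF. Pdgfrb, the pericyte receptor for PDGF-B, fell by 3.61 (adjusted p = 9.67e-05), Des by 3.00 (adjusted p = 0.000252) and Kcnj8 by 2.39 (adjusted p = 0.00214), the last call being lost without siControl replicate 3 (-1.68). Rgs5, the pericyte marker with the most counts, had the opposite sign and overlapped (log2 fold change 0.35, edgeR adjusted p = 0.507). None of the defining markers Alb and Pdgfrb was at 0 in any library. The part of the tissue makeup in the differences of the 10 genes was not tested.

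Of 12 sinusoidal endothelial markers, 3 were called lower and 2 higher under TMM, beside 14.4% and 17.6% of all genes tested. Their median log2 fold change was 0.33, beside 0.50 over all genes. With the counts of both species 12 of the 12 had higher siAATF means. Stab1, a sinusoidal scavenger receptor (log2 fold change -2.03, adjusted p = 0.00422), and Lyve1, a hyaluronan receptor of sinusoids and lymphatics (-2.21, adjusted p = 0.00433), were lower without overlap under TMM, and with the counts of both species both were higher (2.22 and 2.16). They are named after their values were seen. Clec4g, a lectin of liver sinusoids, had 6.42, 0 and 0 CPM in siControl and 52.5, 9.07 and 18.0 CPM in siAATF (adjusted p = 0.0159), and Dnase1l3 had 8.02, 0 and 3.34 CPM against 60.5, 13.9 and 13.3 (adjusted p = 0.0171). The fitted log2 fold changes were 3.48 for Clec4g, moving between 2.56 and 11.18 as libraries were left out, and 2.705 for Dnase1l3, moving between 1.66 and 3.54. The Clec4g call was lost without siControl replicate 2 or 3, and the Dnase1l3 call without siControl replicate 2 or 3 or siAATF replicate 1. Fcgr2b, an Fc receptor of sinusoids and of macrophages, was lower under TMM (-2.87, adjusted p = 0.00211, and -3.81 without siAATF replicate 1) and not with the counts of both species (1.60), and Stab2, the sinusoidal scavenger receptor, was not called (0.85, adjusted p = 0.106) although its libraries did not overlap.

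Summed and set against the pan-endothelial markers, the 12 sinusoidal genes reached 434 to 990 counts per 1000 marker counts in siControl and 1681 to 3075 in siAATF, without overlap. Maf, a transcription factor not restricted to endothelium, was 1502 of the 2693 in siAATF replicate 2 and 1074 of the 3075 in siAATF replicate 3, and Stab1, Lyve1 and Fcgr2b overlapped on that scale. The group means of the sum differed by 1.93 on the log2 scale, less than the median over all genes tested, 3.14. Clec4g was at 0 in 2 siControl libraries and Dnase1l3 in 1, and 3 counts there are 1.67 to 7.24 CPM. Of 5 lymphatic markers, 1 was called higher and 1 lower, beside 17.6% and 14.4% of all genes tested. Prox1, the lymphatic regulator that hepatocytes also express, rose by 3.38 (edgeR adjusted p = 0.001).

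Hypoxia response genes, a group known to be active in poorly perfused tumors together with VEGF and Angpt2, were called lower in siAATF for 8 of 10 genes and higher for 0, with a median log2 fold change of -3.16 under TMM. With the counts of both species 9 of the 10, with Hilpda, Slc2a1 and Ero1a among them, had higher siAATF means. Hilpda, a lipid droplet protein, fell by 3.91 (adjusted p = 0.000225), Slc2a1, the glucose transporter GLUT1, by 3.50 (adjusted p = 9.06e-05) and Ero1a, an oxidoreductase of the endoplasmic reticulum, by 3.29 (adjusted p = 6.66e-05). Hilpda was at -3.21 without siControl replicate 3. Vegfa, a textbook member of the same response, did not pass the test.

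**Figure D5:**
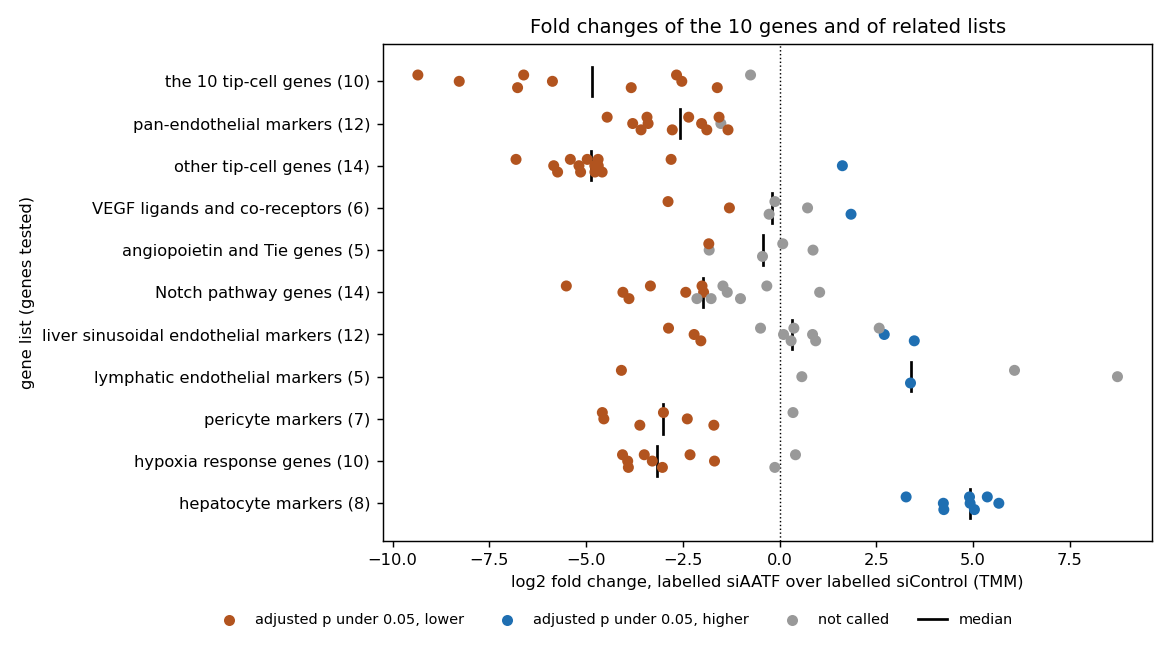
Log2 fold changes (TMM, siAATF over siControl by label) of the 10 tip-cell genes and of 10 related gene lists, with 1 point per tested gene, colored by call at an adjusted p under 0.05, and a line at each median. The medians were -4.85 for the 10 genes, -4.87 for the other tip-cell genes, -2.56 for pan-endothelial markers, 0.33 for sinusoidal markers and 4.92 for hepatocyte markers.

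The genes most like Esm1 over the 6 libraries were looked for among 9466 genes with a mean of at least 50 counts, by the distance between centered log2(CPM + 1) profiles. They were Ankrd1 (distance 0.679), Tnc (0.812), Col1a2 (0.828), Thbs1 (0.841) and Aldh1a2 (0.877). Ankrd1 encodes a nuclear ankyrin-repeat cofactor, Tnc and Thbs1 encode matrix glycoproteins, Col1a2 a fibrillar collagen chain and Aldh1a2 an enzyme that makes retinoic acid. Among the 10 tip-cell genes the nearest to Esm1 was Apln (1.53), then Angpt2 (2.43), and the farthest was Kdr (7.19). Aldh1a2 had 74.6, 104 and 118 CPM in siControl and 0.276, 0 and 0.609 CPM in siAATF. The libraries share their group structure and depth across all genes, so the likeness is a description of these 6 libraries.

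Promoter sequence was at hand for 7 of the 10 genes (RefSeq, GRCm38.p6), and the 250 bases before the start are shown for Esm1 and Kdr, the genes at the ends of the range of fold changes. Capitals mark the single match, in any of the 7 genes, to the letters searched on both strands. These were ACGTG, the core of the hypoxia response element, CCGGAAG, an ETS factor motif, and GTGGGAA, the RBPJ motif of Notch targets, which do not overlap each other here.
Esm1 chr13:113209409-113209658, plus strand: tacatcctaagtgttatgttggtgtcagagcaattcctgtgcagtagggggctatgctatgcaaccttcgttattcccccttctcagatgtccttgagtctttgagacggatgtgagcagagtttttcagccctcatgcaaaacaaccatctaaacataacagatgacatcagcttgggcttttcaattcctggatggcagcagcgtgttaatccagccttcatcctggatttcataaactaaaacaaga
Kdr chr5:75978456-75978705, minus strand: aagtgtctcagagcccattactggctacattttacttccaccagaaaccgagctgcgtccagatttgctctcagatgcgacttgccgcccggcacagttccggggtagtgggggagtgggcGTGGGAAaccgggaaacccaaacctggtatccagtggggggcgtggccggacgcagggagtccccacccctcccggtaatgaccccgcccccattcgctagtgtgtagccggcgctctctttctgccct

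The Kdr match was to GTGGGAA, on the strand of the gene, starting 129 bases before the start. Over all 32851 promoters of the table, 5.42% held GTGGGAA, 16.6% ACGTG and 6.91% CCGGAAG in the same 250 bases. The absence of these letters from the other windows says only that they are not in the window. The bases G and C made up 44% of the Esm1 window, against a median of 52.4% over all promoters, and 61.6% to 70.4% in the other 6 genes. Pgf had 2 windows, and both were searched.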

How the data were processed

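Gene counts of 6 libraries, made with a SMART-Seq kit that copies cDNA by PCR, were analysed. The authors aligned the reads to the human and mouse genomes (GRCm39) with STAR 2.7.11, dropped reads mapping to both species and deposited raw counts per gene from featureCounts 2.0.1, without normalization. The count columns were matched to groups by name, and 0 were unassigned. Names of 56323 of the 56884 mouse genes came from gencode, and 32780 had the same start and end there. Mouse counts were tested with edgeR 4.0.16 (quasi-likelihood, TMM, total of at least 10 counts, group as the only term, R 4.3.3, limma 3.58.1), and a gene was called at a Benjamini-Hochberg adjusted p under 0.05. The members and lists were chosen with earlier results of these data known. Named were the 10 members, 13 fixed pathway and marker genes, up to 3 called genes per list with the largest changes at a mean of at least 50 counts, and the 5 genes most like Esm1. Insr, Rgs5, Mcph1, Gzmk, Gm14207, Apela, Stab1, Lyve1, Maf, Hes1, Hey2, Heyl and Nrarp were named after their values were seen. The value of Rgs5 under the alternatives is not given. DESeq2 1.42.0, limma-voom, other scalings and filters, a block and leaving out each library were alternatives. The fits were also run on counts simulated from a gene profile pooled over both groups, with some genes changed. That simulation does not cover groups of unlike tissue makeup. Figures used Python 3.11.15 and matplotlib 3.10.9. The labels do not tie each library to a mouse of its own, so p-values measure the spread between these libraries, which may be technical, and intervals cover counting error only.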

Additional observations from a re-analysis of the deposited data

How the results depend on the processing

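Of the 10 genes, 9 were called lower in the main analysis, 10 with mouse library size alone, with the replicate block or without siAATF replicate 1, 8 of 9 tested with filterByExpr or after thinning (which cost Flt4 its call and gave Kdr one), and 8 with the study's criterion (an unadjusted p under 0.05 and a log2 change of at least 2), where Flt4 lost its call. Leaving out single libraries gave 8 to 10 called lower and 0 called higher, 1722 to 2503 mouse genes lower and 1611 to 3576 higher, and 44 to 50 of the list genes lower beside 52 in the main analysis. With at least 10 counts in every library only 4 of the 10 were tested and 3 called lower, beside 30 list genes and 873 lower and 872 higher among 3552 mouse genes tested, where the main analysis called 2593 and 3169 among 18018. Thinning left 1309 mouse genes higher.

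The library scale changed most. With mouse library size alone 7267 mouse genes were lower and 748 higher. With the counts of both species 3 of the 10 were lower and 4 higher, 1 list gene was lower, and 119 mouse genes were lower and 15711 higher. With the pan-endothelial counts the numbers were 5, 1, 14, 404 and 11934, and with Pecam1 and Cdh5, added after the data were seen, 4, 2, 2, 118 and 14263.

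Among the genes named in the text, the signs that changed, as log2 fold changes, were with the counts of both species those of Plvap (1.92), Dll4 (0.55), Kdr (3.71), Flt1 (1.75), Flt4 (2.75), Vegfa (3.92), Vegfc (1.34), Nrp2 (2.86), Tie1 (2.61), Notch1 (2.96), Hey1 (0.44), Hey2 (2.35), Heyl (3.36), Nrarp (1.91), Pecam1 (1.07), Cdh5 (0.88), Pdgfrb (0.71), Robo4 (1.04), Rbpj (2.30), Fcgr2b (1.60), Stab1 (2.22), Lyve1 (2.16), Des (1.42), Kcnj8 (1.84), Hilpda (0.38), Slc2a1 (0.85) and Ero1a (0.98). With the pan-endothelial counts they were those of Kdr (1.59), Flt4 (0.83), Vegfa (2.46), Nrp2 (1.23), Tie1 (0.40), Notch1 (1.26), Hey2 (0.21), Heyl (1.32), Nrarp (0.28), Rbpj (0.54), Stab1 (0.34), Lyve1 (0.56) and Kcnj8 (0.40), and with Pecam1 and Cdh5 those of Plvap (1.153), Kdr (2.90), Flt1 (1.33), Flt4 (2.16), Vegfa (3.80), Vegfc (1.05), Nrp2 (2.62), Tie1 (1.65), Notch1 (2.59), Hey2 (1.24), Heyl (2.61), Nrarp (1.49), Pecam1 (0.024), Pdgfrb (0.17), Robo4 (0.25), Rbpj (1.80), Fcgr2b (0.51), Stab1 (1.69), Lyve1 (1.75), Des (0.75), Kcnj8 (1.61), Slc2a1 (0.40) and Ero1a (0.53). With mouse library size alone they were those of Nrp1 (-0.0068), Tek (-1.57), Insr (-0.23), Hes1 (-0.90), Maf (-1.52) and Stab2 (-0.92). Maf also turned to -0.25 after thinning, and ran from -0.013 to 0.61 when single libraries were left out. Tek also turned to -0.027 with DESeq2, -0.031 with RLE normalization, -0.051 with filterByExpr, -0.21 with limma-voom and with upper-quartile normalization, -0.12 with the replicate block, -1.78 after thinning, and its fold change ran from -0.77 to 0.48 when single libraries were left out, as that of Vegfa ran from -0.45 to 0.033 and that of Nrarp from -2.77 to 4.32.

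Same-numbered libraries correlated at 0.15, 0.21 and -0.02 in their deviations from the group means, and libraries did not all match their own number best. These values show no clear pairing by number, but with 3 libraries per group they cannot exclude one. With the replicate block 2912 mouse genes were lower and 3854 higher, and Kdr was called. The 213022 to 913584 mouse counts of siControl limit what could be seen there, and the few counts of Esm1, Apln, Aplnr and Pgf in siAATF limit the size of their folds.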
